A study of Mus musculus with 18 samples.

Results

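Integrins and laminins are the paired chains through which cells hold on to their matrix, and the RNA of every integrin and laminin subunit was followed here in 6 cell lines grown from mouse malignant peripheral nerve sheath tumors (MPNSTs). Members were chosen by gene name alone, as names that begin with Itga or Itgb and names of the form Lama, Lamb or Lamc followed by a digit, leaving out the binding proteins and the integrin-like gene that share the Itgb stem. The rule found 38 genes among the 35275 of the count table, made up of 18 integrin alpha chains, 9 integrin beta chains and 11 laminin chains. The tumors arose in wild-type 129 Sv/Jae mice whose sciatic nerve was injected with an adenovirus carrying Cas9 behind a CMV promoter together with guide RNAs, so that any infected cell at the site could have been edited. Guides against Nf1 and p53 gave the Nf1/p53 dKO genotype (Nf1-/-; p53-/-), guides against Nf1 and Cdkn2a gave the Nf1/Cdkn2a dKO genotype (Nf1-/-; Cdkn2a-/-), and loss of Nf1 was common to both. Each of the 3 lines per genotype came from its own tumor and was grown untreated in medium with fetal bovine serum, in 3 cultures per line, which gave 18 libraries. There was no unedited line, so the comparison is between the 2 double knockouts.

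An integrin is a dimer of an alpha and a beta chain that spans the membrane, binds matrix outside and couples to actin inside through talin and kindlin. The alpha chain largely sets what is bound: α5, α8 and αv read the RGD motif of fibronectin and related proteins, α3, α6 and α7 bind laminin, α1, α2, α10 and α11 bind collagen, and the chains that pair with β2 belong to leukocytes. Laminins are cross-shaped trimers of an alpha, a beta and a gamma chain that polymerize into basement membrane, and Schwann cells, the cells around peripheral axons, depend on a laminin coat and on β1 integrin to ensheathe axons. A chain that lacks its partner is generally held back in the cell, which is why levels are given below both chain by chain and for the lowest chain of each known combination.

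Library totals ran from 19560535 to 28312207 counts, and the 3 cultures of a line were summed to 65206479 to 73065228 counts. Levels are CPM, counts scaled to a common library size after TMM normalization, and levels of different genes are compared only as CPM per kilobase of annotated exon (CPM per kb). The mesenchymal cell type of the labels had its markers, 10 of 10 at or above 1 CPM in some line, with a sum of 8072 to 20062 CPM across Nf1/p53 dKO lines and 12066 to 20350 CPM across Nf1/Cdkn2a dKO lines. Schwann cell markers were sparse: Sox10 and Gfra3 stayed under 1 CPM in every line, and the list of 10 summed to 3.71 to 78.7 CPM against 1.48 to 3.05 CPM. The sum of 7 muscle progenitor markers moved with genotype, at 52.8 to 330 CPM across Nf1/p53 dKO lines and 0.203 to 0.346 CPM across Nf1/Cdkn2a dKO lines. Myf5 and Cdh15 were present in every Nf1/p53 dKO line, at 24.2 to 28.0 and 27.9 to 97.6 CPM, and carried the sum in lines 1 and 2. Myod1 was high in Nf1/p53 dKO line 3 alone, at 1.75, 0.269 and 204 CPM across that genotype, and made up most of the 330 CPM of that line. The other 4 of the 7 markers stayed under 1 CPM in every line. RNA of the edited genes was still counted, with Nf1 at 27.7 to 70.0 CPM against 12.7 to 38.3 CPM, Trp53 at 58.7 to 94.1 CPM against 185 to 247 CPM, and Cdkn2a at 42.9 to 363 CPM against 169 to 392 CPM. Nf1 was targeted in both genotypes, so its RNA level cannot check the labels. Cdkn2a overlapped between the genotypes, so its RNA level does not check them. Trp53 did not overlap and was lower in the lines made with guides against p53. In these bulk samples, fewer cells of a type and less RNA per cell cannot be told apart.

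The lines shared a common adhesion repertoire dominated by the β1 chain. Itgb1, the partner of most alpha chains, was the highest of the 38 genes per length in each of the 6 lines, with 341, 402 and 102 CPM per kb in Nf1/p53 dKO lines 1, 2 and 3 and 573, 508 and 456 CPM per kb in Nf1/Cdkn2a dKO lines 1, 2 and 3. It was followed, by mean over the 6 lines, by the fibronectin receptor chain Itga5 (67.2 CPM per kb), Lamb1 (56.8), Lamc1 (48.4), the vitronectin receptor chain Itgb5 (40.8), the laminin receptor chain Itga3 (35.1) and Itgav (26.3). Itgb7, a chain best known from gut-homing lymphocytes, came next at 26.2 CPM per kb, with a range over the lines of 17.3 to 39.6. Pooled over the 6 lines, the ranges overlapped in all 37 neighbouring pairs of this order, so pooled ranges set no gene apart from the next. Within each line Itgb1 still lay well above the next gene, at 102 against 37.8 CPM per kb in Nf1/p53 dKO line 3. Taking 1 CPM per kb as detected, 13 members were detected in all 6 lines, 6 in some lines and 19 in none.

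**Figure D1:**
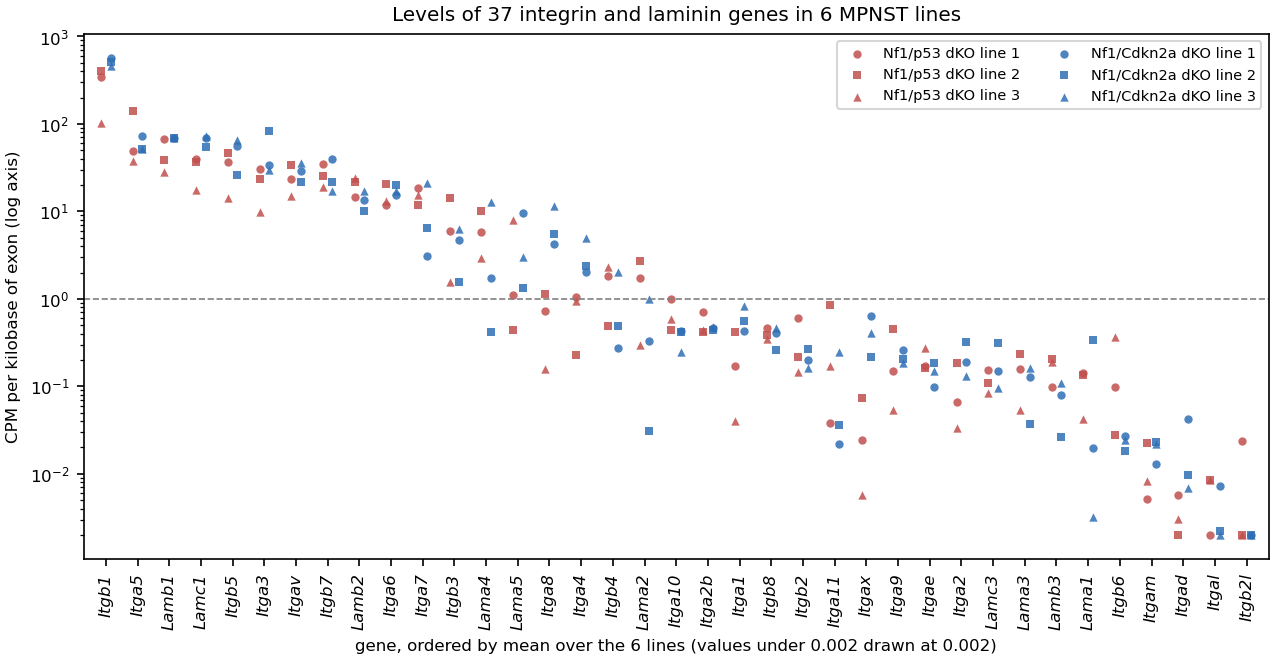
Level of each of 37 genes in CPM per kb of exon (vertical log axis) by gene (horizontal axis, ordered by mean); each point is a line, red for Nf1/p53 dKO and blue for Nf1/Cdkn2a dKO, and the dashed line marks 1 CPM per kb. Itgb1 lies highest in every line, and the 19 genes at the right stay below the dashed line in all 6.

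The 6 genes detected in some lines only were Lama4, Lama5, Itga8, Itga4, Itgb4 and Lama2. At the bottom of the order lay the leukocyte chains Itgam, Itgad and Itgal and the β2-like gene Itgb2l, none of which had enough counts to be tested. Itgal, the alpha chain of LFA-1, had at most 3 counts in any of the 18 cultures, and Itgb2l had 8 counts in a single Nf1/p53 dKO culture and 0 in the other 17. Itgam shared 68.7% of its exon bases with a neighbouring annotated gene on the same strand, Gm49368, so its counts are uncertain.

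Lines of a genotype differed in these genes far more than cultures of a line did. Over the 29 members with a mean of at least 1 CPM, the median standard deviation of log2(CPM + 1) between cultures of a line was 0.11 in Nf1/p53 dKO and 0.15 in Nf1/Cdkn2a dKO, while between lines it was 0.81 and 0.49. The spread between lines exceeded that between cultures for 27 of the 29 in Nf1/p53 dKO and for 25 in Nf1/Cdkn2a dKO. Nf1/p53 dKO line 3 was the lowest of the 6 lines for 13 of the 29 members, Nf1/Cdkn2a dKO line 3 the highest for 9 and Nf1/p53 dKO line 2 the highest for 7. The largest ratio of highest to lowest line among genes over 1 CPM per kb on average was for Lama2, at 87.6.

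When alpha chains were paired with beta chains, 7 of 24 known dimers had both chains at 1 CPM per kb or more in all 6 lines. These were the fibronectin receptor α5β1, the laminin receptors α3β1, α6β1 and α7β1, and αvβ1, αvβ3 and αvβ5. A further 4 dimers were complete in some lines and 13 in none. Both α8β1 and α4β1 were complete in all 3 Nf1/Cdkn2a dKO lines and in 1 Nf1/p53 dKO line, a different line for each, and α4β7 followed α4β1 because Itga4 was its lower chain. With the longest annotated transcript as length, Itga4 was at 1.51 and 1.37 CPM per kb in Nf1/p53 dKO lines 1 and 3, so that α4β1 and α4β7 were complete in 2 lines of that genotype. The α6β4 dimer, a hemidesmosome receptor that myelinating Schwann cells also carry, was complete in 2 Nf1/p53 dKO lines and 1 Nf1/Cdkn2a dKO line, with Itgb4 the lower chain in each.

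The lower chain of α5β1 was Itga5, at 49.5, 139 and 37.8 CPM per kb across Nf1/p53 dKO lines, against 72.4, 51.9 and 52.3 CPM per kb across the Nf1/Cdkn2a dKO lines. For α3β1 it was Itga3, at 30.2, 23.3 and 9.85 CPM per kb against 33.6, 84.0 and 29.8 CPM per kb. Both dimers overlapped between genotypes, with Nf1/p53 dKO line 2 highest for the first and Nf1/Cdkn2a dKO line 2 highest for the second. In αvβ3 the beta chain was the lower, at 6.02, 14.3 and 1.58 CPM per kb against 4.65, 1.56 and 6.27. In αvβ5 the chains were closer, and the lower was Itgav in 5 lines and Itgb5 in Nf1/p53 dKO line 3. The dimers of αv with β6 and with β8, which are among the integrins that release latent TGFβ, were complete in no line. Itgb6 was at 0.0183 to 0.366 CPM per kb and Itgb8 at 0.261 to 0.467 CPM per kb.

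**Figure D2:**
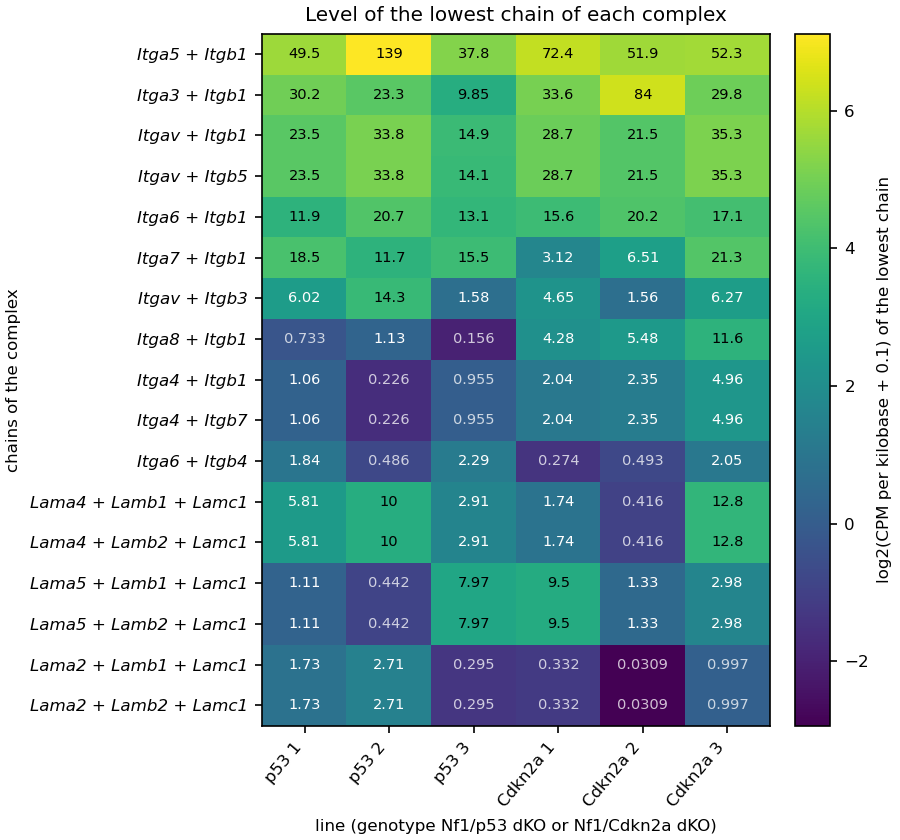
Level of the lowest chain in CPM per kb (printed in each cell, colored on a log2 scale after adding 0.1) for the 11 integrin dimers and 6 of the 7 laminin trimers complete in at least 1 line (rows) in the 6 lines (columns); pale numbers are below 1. The top 7 rows hold the dimers complete in every line, and no laminin row is at 1 or above throughout.

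Itgb1 RNA exceeded the summed RNA of its alpha partners in every line when lengths were taken over all annotated exons. On that scale, Itgb1 over the sum of its 12 alpha partners was 2.49, 1.73 and 1.09 across Nf1/p53 dKO lines, against 3.56, 2.63 and 2.62 in the Nf1/Cdkn2a dKO lines. The genotypes did not overlap in this ratio, and with 3 lines per side the smallest p that exact permutation can give is 0.1. Lengths from the longest annotated transcript gave 1.89, 1.41 and 0.790 against 2.88, 2.12 and 1.95, so that the sum passed Itgb1 in Nf1/p53 dKO line 3 on that scale. Some of these alpha chains, such as Itgav, Itga6 and Itga4, also pair with other beta chains.

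Most of the alpha partner mix in each line was Itga5, Itga3, Itgav, Itga6 and Itga7. Itga5 made up 36.2, 59.9 and 40.6% of the summed CPM per kb across Nf1/p53 dKO lines, against 45.0, 26.8 and 30.1% in the Nf1/Cdkn2a dKO lines. Itga3 was 22.1, 10.0 and 10.6% against 20.8, 43.4 and 17.1%, and in Nf1/Cdkn2a dKO line 2 it was the largest share. Itga7 ranged from 5.03 to 16.7% in the Nf1/p53 dKO lines and from 1.94 to 12.3% in the Nf1/Cdkn2a dKO lines. Itga8 was a minor partner in both genotypes, at 0.535, 0.488 and 0.167% against 2.66, 2.83 and 6.64%, and its shares did not overlap.

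**Figure D3:**
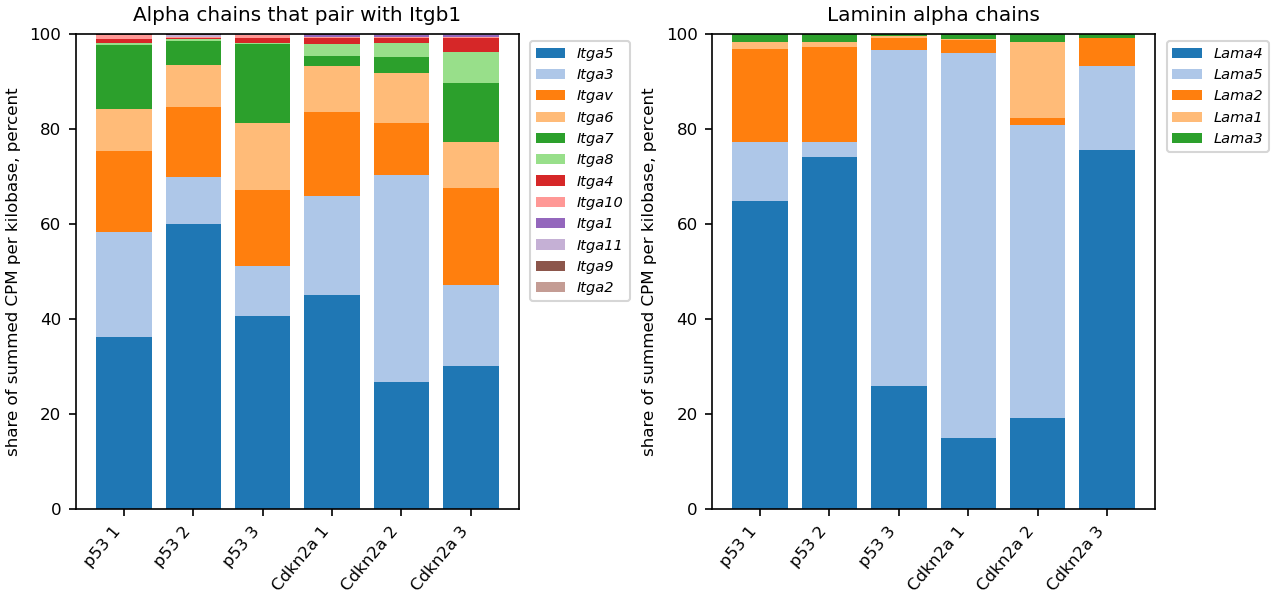
Left, share of each alpha chain in the summed CPM per kb of the 12 partners of Itgb1; right, share of each laminin alpha chain in their sum, in percent (vertical axes), by line (horizontal axes). Itga5 is the largest share on the left in 5 of the 6 lines, and on the right 3 lines are mostly Lama4 and 3 mostly Lama5, in both genotypes.

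Between the genotypes, no integrin or laminin gene passed the test that took each tumor line as 1 sample. With edgeR's quasi-likelihood test on the 6 lines and Benjamini-Hochberg adjustment over 15207 genes, 0 of the 34 tested members had an adjusted p under 0.05, and 1.80% of all tested genes did. At an unadjusted p under 0.05, 5 of 34 members were higher in Nf1/Cdkn2a dKO, among them Itgax, Itga8, Itga4 and Lamc1, beside 9.81% of all genes, and 1 was lower (Itgb6) beside 12.5% of all genes. For 10 members the ranges of the 3 lines per genotype were apart, of which 8 were higher in Nf1/Cdkn2a dKO beside 14.8% of all genes and 2 were lower beside 16.6% of all genes. Without Nf1/p53 dKO line 3, 9 members were higher and 3 lower without overlap, beside 20.9% and 22.3% of all genes. The members had a median log2 fold change (Nf1/Cdkn2a dKO over Nf1/p53 dKO) of -0.01, with 17 above 0 and 17 below, and all tested genes had a median of -0.02. Alpha chains had a median of 0.21 (15 tested), beta chains of -0.35 (8 tested) and laminin chains of 0.20 (11 tested).

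Other tools called some members. DESeq2 on the same 6 lines called 6 of 34, 5 of them higher in Nf1/Cdkn2a dKO, beside 12.0% of all genes. Limma-voom, fitted to all 18 cultures with a random term for the line, called 9 of 33, 8 of them higher, beside 16.6% of all genes. When the 18 cultures were taken as if they were separate tumors, edgeR called 14 of 33 members beside 46.5% of all genes, and DESeq2 called 15 of 36 beside 39.3%. Itga8, Itga4 and Lamc1 were among the members called by all 4 of these fits. Scaling by raw total counts moved the median of all genes by -0.14 on the log2 scale and that of the members to -0.14, and Itgb7, at a log2 fold change of 0.00, was the only member whose sign turned with any scaling.

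**Figure D4:**
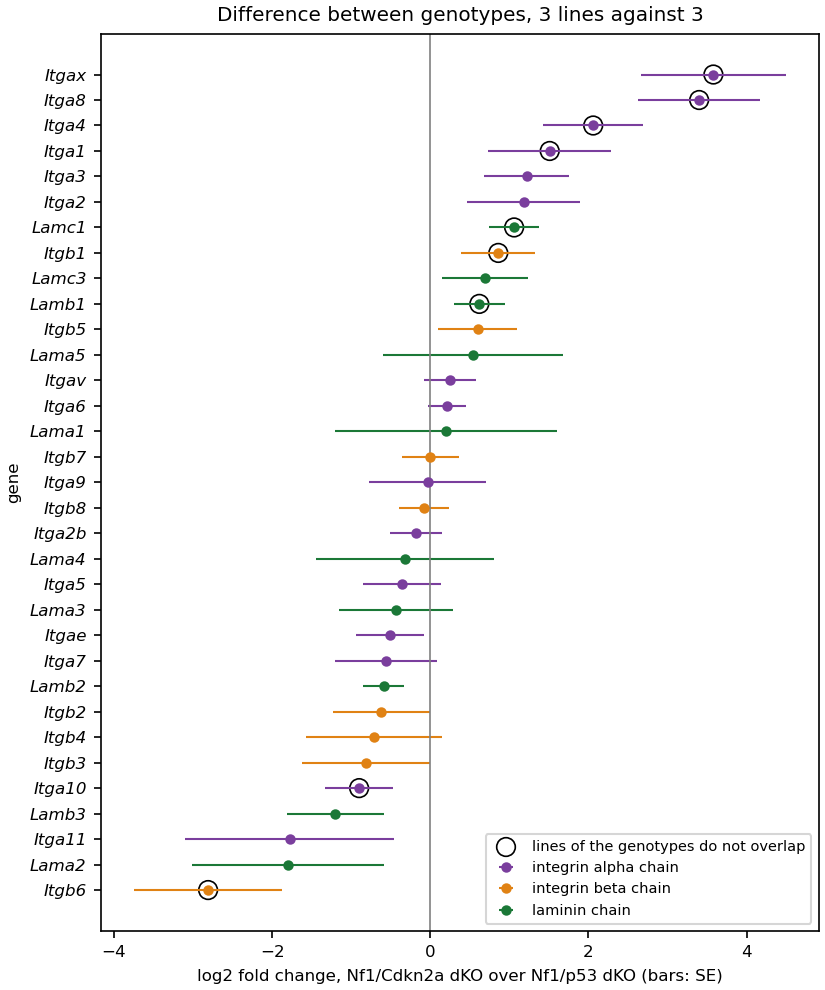
Fitted log2 fold change of 33 tested members (horizontal axis, Nf1/Cdkn2a dKO over Nf1/p53 dKO, bars are SE) by gene (vertical axis), colored by family; black rings mark the 9 genes whose lines did not overlap. Itgax and Itga8 lie highest at 3.58 and 3.40, and Itgb6 lowest at -2.81.

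Among the RGD-reading alpha chains, Itga8 set the genotypes furthest apart. Itga8 (ENSMUSG00000026768, GRCm38 chromosome 2, 12106632 to 12301922, minus strand) encodes the alpha chain of the receptor for nephronectin, which also binds fibronectin and is known from kidney mesenchyme and myofibroblasts. It stood at 5.40, 8.36 and 1.15 CPM across Nf1/p53 dKO lines and 31.5, 40.3 and 85.1 CPM across Nf1/Cdkn2a dKO lines. All 3 Nf1/Cdkn2a dKO lines lay above all 3 Nf1/p53 dKO lines, and so did every culture, the lowest Nf1/Cdkn2a dKO culture being at 27.8 CPM. The log2 fold change was 3.40 (SE 0.77, n = 3 lines per genotype, edgeR adjusted p = 0.0739), and leaving out any line kept it between 2.86 and 4.01. An antisense gene, E030013I19Rik, covers 5.05% of its exon bases and had 116 counts beside the 11299 of Itga8.

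The lines of the other RGD-reading alpha chains overlapped between the genotypes. Itga5, the fibronectin receptor chain, stood at 244, 687 and 187 CPM across Nf1/p53 dKO lines and 357, 256 and 258 CPM across Nf1/Cdkn2a dKO lines. Itgav, the shared chain of the vitronectin receptors, stood at 252, 364 and 160 CPM against 309, 231 and 379 CPM. Their log2 fold changes were -0.36 (SE 0.49) and 0.25 (SE 0.33). The platelet chain Itga2b stayed at 2.28 to 3.83 CPM in all 6 lines, beside a platelet marker list of 5 genes that summed to at most 1.27 CPM.

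Of the related chains α4 and α9, only α4 had lines that did not overlap. Itga4 (ENSMUSG00000027009, chromosome 2, 79255426 to 79333123, plus strand) encodes the alpha chain of VLA-4, which binds VCAM1 and an alternatively spliced stretch of fibronectin and is carried by leukocytes and neural crest cells. It stood at 14.8, 3.15 and 13.4 CPM across Nf1/p53 dKO lines and 28.5, 32.8 and 69.4 CPM across Nf1/Cdkn2a dKO lines. Nf1/p53 dKO line 2 was the lowest and Nf1/Cdkn2a dKO line 3 the highest. The log2 fold change was 2.06 (SE 0.63, edgeR adjusted p = 0.128), and 1.56 to 2.40 with each line left out. Itga9, which binds tenascin-C, stayed low at 0.415 to 3.51 CPM against 1.42 to 1.97 CPM.

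The promoters of Itga8 and Itga4 and of their shared partner Itgb1 are shown because the genotypes were apart for these 3 genes, which make up α8β1 and α4β1. The sequences are from RefSeq on GRCm38.p6, run 5′ to 3′ on the gene's strand from 250 bases before to 50 after the start, and capitals mark matches to any of 4 motifs on either strand. The GC box was searched as GGGCGG. The TATA box was searched as TATAAA. The motif of AP-1, the Fos and Jun dimer, was searched as TGANTCA. The CCAAT box was searched by its name's own letters, and was added after matches to the other motifs had been seen.
Itga8, chr2:12301895-12302194, minus strand: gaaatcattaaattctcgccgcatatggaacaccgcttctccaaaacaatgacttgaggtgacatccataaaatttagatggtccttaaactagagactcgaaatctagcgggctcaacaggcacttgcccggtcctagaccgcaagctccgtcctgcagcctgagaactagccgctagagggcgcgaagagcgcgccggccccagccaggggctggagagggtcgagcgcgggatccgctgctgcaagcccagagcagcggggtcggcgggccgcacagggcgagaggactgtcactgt
Itga4, chr2:79255176-79255475, plus strand: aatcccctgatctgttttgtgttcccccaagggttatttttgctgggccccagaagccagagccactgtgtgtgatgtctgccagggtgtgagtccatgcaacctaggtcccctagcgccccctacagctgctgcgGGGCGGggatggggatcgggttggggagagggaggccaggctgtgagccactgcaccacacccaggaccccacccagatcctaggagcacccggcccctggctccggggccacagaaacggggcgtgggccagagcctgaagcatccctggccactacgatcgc
Itgb1, chr8:128685404-128685703, plus strand: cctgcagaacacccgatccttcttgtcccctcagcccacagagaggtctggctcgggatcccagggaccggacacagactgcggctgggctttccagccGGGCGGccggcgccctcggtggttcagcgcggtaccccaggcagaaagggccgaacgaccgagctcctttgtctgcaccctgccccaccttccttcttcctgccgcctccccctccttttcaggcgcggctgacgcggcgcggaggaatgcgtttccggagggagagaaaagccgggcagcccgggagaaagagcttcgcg
These windows hold 59.0, 64.3 and 67.3% G and C. The Itga4 and Itgb1 windows each hold 1 GC box, which 35.7% of 32851 promoters also hold, and the Itga8 window holds none of the 4 motifs. Of the 24 members with a promoter in the table, 11 held a GC box, 3 the AP-1 motif, which 7.81% of all promoters hold, 4 a CCAAT box, which 37.4% hold, and 0 a TATA box, which 13.6% hold. No overlap of matches between motifs occurred in the windows shown, and a match to these letters is only a description of the window.

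**Figure D5:**
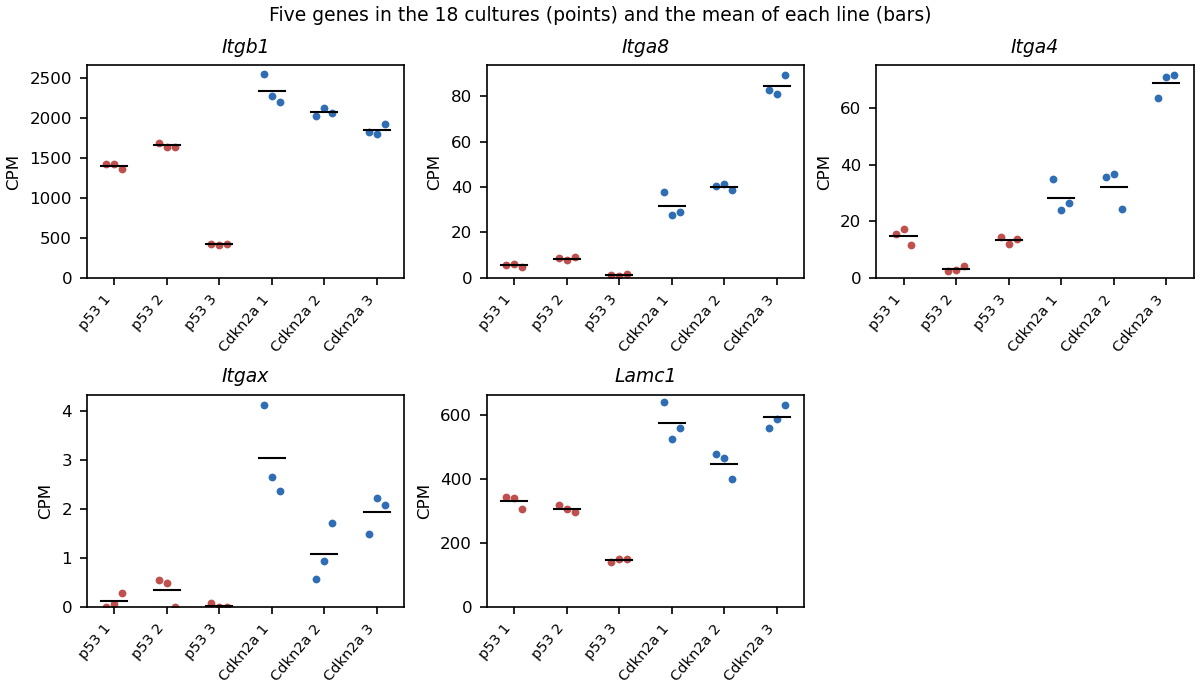
CPM (vertical axes from 0) of 5 genes in the 18 cultures (points) by line (horizontal axes), with the mean of each line as a bar; red is Nf1/p53 dKO and blue Nf1/Cdkn2a dKO. The cultures of a line lie close together, every blue line mean lies above every red line mean, and Itgb1 is lowest in Nf1/p53 dKO line 3.

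Among beta chains, the shared β1 chain was higher in every Nf1/Cdkn2a dKO line. Itgb1 (ENSMUSG00000025809, chromosome 8, 128685654 to 128733200, plus strand) stood at 1393, 1642 and 415 CPM across Nf1/p53 dKO lines and 2340, 2075 and 1861 CPM across Nf1/Cdkn2a dKO lines. Nf1/p53 dKO line 3 lay well below the other 5 lines. The log2 fold change was 0.86 (SE 0.47, edgeR adjusted p = 0.329), and without Nf1/p53 dKO line 3 it was 0.47 (SE 0.17, adjusted p = 0.206). Itgb1 was named after its values were seen, as was Lamb1 below, because their lines did not overlap.

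Of the other beta chains that pair with αv, Itgb3, Itgb5 and Itgb8 overlapped between the genotypes. Itgb3, which also forms the platelet fibrinogen receptor, stood at 35.5, 84.5 and 9.33 CPM across Nf1/p53 dKO lines and 27.4, 9.20 and 37.0 CPM across Nf1/Cdkn2a dKO lines. Itgb5 stood at 130, 165 and 50.1 CPM against 199, 93.1 and 232 CPM. The log2 fold changes of Itgb3 and Itgb5 were -0.81 (SE 0.81) and 0.60 (SE 0.50). Itgb8 stood at 2.88 to 5.16 CPM. Itgb6, a chain of epithelia, stood at 0.696, 0.198 and 2.60 CPM against 0.193, 0.130 and 0.172 CPM, so that the genotypes did not overlap but most values were near 0. Its log2 fold change was -2.81 (SE 0.94, edgeR adjusted p = 0.152) and -1.43 without Nf1/p53 dKO line 3.

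Itgb7 stood at 95.4, 70.4 and 52.0 CPM across Nf1/p53 dKO lines and 110, 60.5 and 48.0 CPM across Nf1/Cdkn2a dKO lines. The genotypes overlapped, with a log2 fold change of 0.00 (SE 0.36), and its other partner Itgae, the alpha chain of intraepithelial lymphocytes, was at 0.449 to 1.27 CPM over the 6 lines. Leukocyte markers were low in the same libraries, with 8 of 10 under 1 CPM in every line, among them Ptprc, which encodes the common leukocyte antigen. Itgb4 stood at 12.9, 3.41 and 16.1 CPM against 1.93, 3.46 and 14.4 CPM, with a log2 fold change of -0.71 (SE 0.86).

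In the β2 family of leukocytes, Itgax was the one tested alpha chain. Itgax (ENSMUSG00000030789, chromosome 7, 128129547 to 128150657, plus strand) encodes CD11c, a complement receptor chain of dendritic cells and macrophages. It stood at 0.116, 0.354 and 0.0277 CPM across Nf1/p53 dKO lines and 3.03, 1.04 and 1.94 CPM across Nf1/Cdkn2a dKO lines. The groups did not overlap, yet the highest line was only at 0.631 CPM per kb, below the level taken as detected. The log2 fold change was 3.58 (SE 0.92, edgeR adjusted p = 0.0920), and 3.09 to 4.77 with each line left out. Its partner Itgb2 stood at 0.443 to 1.84 CPM over the 6 lines with an overlap (log2 fold change -0.62, SE 0.61). The leukocyte list of 10 genes summed to 4.97 to 6.12 CPM against 11.5 to 16.5 CPM, and Cd53 at 10.0 to 12.3 CPM made up most of the second range. Of the other 9 genes, the myeloid receptor Csf1r stood at 2.98, 3.17 and 1.48 CPM against 0.866, 0.721 and 2.92 CPM, and 8 were under 1 CPM in every line. The lines had been passaged repeatedly before use to leave tumor cells alone, and the part of leukocyte RNA in the Itgax difference was not tested.

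The laminin-binding alpha chains were well expressed in both genotypes. Itga3 stood at 172, 133 and 56.2 CPM across Nf1/p53 dKO lines and 192, 479 and 170 CPM across Nf1/Cdkn2a dKO lines. Its log2 fold change was 1.22 (SE 0.54, edgeR adjusted p = 0.248), and 0.59 without Nf1/Cdkn2a dKO line 2, the line that stood highest. Itga6 was the steadiest of the group at 108, 187 and 119 CPM against 141, 183 and 154 CPM. Itga7, the laminin receptor chain of skeletal muscle that Schwann cells also carry, stood at 150, 94.8 and 126 CPM against 25.3, 52.7 and 173 CPM. Nf1/Cdkn2a dKO line 3 was the highest line and the other Nf1/Cdkn2a dKO lines the lowest, so the genotypes overlapped (log2 fold change -0.56, SE 0.65). Muscle progenitor markers, at most 0.346 CPM in sum in any Nf1/Cdkn2a dKO line, stood at 52.8 to 330 CPM across Nf1/p53 dKO lines, and their part in the Itga7 levels was not tested.

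Collagen-binding chains were all under 1 CPM per kb of annotated exon, and their fold changes pointed both ways. With the longest transcript as length, Itga1 reached 1.40 CPM per kb in Nf1/Cdkn2a dKO line 3 and Itga10 1.02 CPM per kb in Nf1/p53 dKO line 1. Itga1 stood at 3.21, 7.86 and 0.747 CPM across Nf1/p53 dKO lines and 7.96, 10.5 and 15.3 CPM across Nf1/Cdkn2a dKO lines, with no overlap but with the nearest lines at 7.86 and 7.96 CPM. Its log2 fold change was 1.51 (SE 0.78, edgeR adjusted p = 0.302). Itga10, a chain of cartilage, went the other way without overlap, at 5.16, 2.31 and 3.03 CPM against 2.20, 2.15 and 1.27 CPM (log2 fold change -0.90, SE 0.43, adjusted p = 0.277). A gene annotated on the same strand, Gm42957, shares 33.5% of the exon bases of Itga10, so its counts are uncertain. Itga11, a fibroblast collagen receptor chain, was high in Nf1/p53 dKO line 2 alone, at 0.193, 4.37 and 0.886 CPM against 0.112, 0.188 and 1.28 CPM. Its log2 fold change was -1.78 (SE 1.32, adjusted p = 0.467), and -0.02 without that line. Itga2 stood at 0.235 to 1.32 CPM against 0.938 to 2.29 CPM.

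The leading laminin alpha chain differed between lines of the same genotype. No trimer of the 15 considered was complete in all 6 lines, 7 were complete in some and 8 in none. Lama4, an alpha chain of endothelial and peripheral nerve laminins, stood at 70.1, 121 and 35.1 CPM across Nf1/p53 dKO lines and between 5.02 and 155 CPM across Nf1/Cdkn2a dKO lines. Lama5, the broad alpha chain of adult basement membranes, stood at 12.7, 5.04 and 90.8 CPM against 108, 15.2 and 34.0 CPM. Lama4 made up 64.9, 74.0 and 25.8% of the summed alpha chains per length in Nf1/p53 dKO and 14.9, 19.2 and 75.6% in Nf1/Cdkn2a dKO, and Lama5 12.4, 3.27 and 70.7% against 81.0, 61.7 and 17.6%. The larger share was Lama4 in 3 lines and Lama5 in 3 lines with either measure of length, and both kinds of line occurred in each genotype. The log2 fold changes of -0.32 for Lama4 and 0.54 for Lama5 were smaller than their standard errors, and without Nf1/p53 dKO line 3 that of Lama5 was 2.58 (SE 0.95, edgeR adjusted p = 0.206).

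Lama2, the alpha chain of the Schwann cell and muscle laminin, was highest in 2 Nf1/p53 dKO lines. It stood at 28.3, 44.2 and 4.82 CPM across Nf1/p53 dKO lines and 5.42, 0.505 and 16.3 CPM across Nf1/Cdkn2a dKO lines. Laminin-211 and laminin-221, which need it, were complete in Nf1/p53 dKO lines 1 and 2 and in no Nf1/Cdkn2a dKO line, where Lama2 in line 3 reached 0.997 CPM per kb, just short of the level taken as detected. With the longest annotated transcript as length it was at 1.69 CPM per kb, and both trimers were then complete in that line too. The genotypes overlapped, with a log2 fold change of -1.80 (SE 1.21, edgeR adjusted p = 0.421). Schwann cell markers were highest in the same line as Lama2, Nf1/p53 dKO line 2 at 78.7 CPM in sum (Ngfr at 64.3 CPM). Muscle progenitor markers were highest in Nf1/p53 dKO line 3 at 330 CPM (Myod1 at 204 CPM), where Lama2 was lowest of its genotype. The part of either marker list in the Lama2 levels was not tested. Lama1, the embryonic alpha chain, reached 3.32 CPM in Nf1/Cdkn2a dKO line 2 and at most 1.37 CPM elsewhere, and Lama3, the epithelial alpha chain, stayed at 0.404 to 2.53 CPM.

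Of the gamma chains, Lamc1 was higher in every Nf1/Cdkn2a dKO line. Lamc1 (ENSMUSG00000026478, chromosome 1, 153218922 to 153332786, minus strand), the gamma chain of nearly all laminins, stood at 328, 305 and 147 CPM across Nf1/p53 dKO lines and 575, 451 and 596 CPM across Nf1/Cdkn2a dKO lines. The lines did not overlap, and the log2 fold change was 1.06 (SE 0.32, edgeR adjusted p = 0.123), and 0.78 to 1.26 with each line left out. Lamc1 was named after its values were seen, for its unadjusted p of 0.0138. The range of its adjusted p over all alternatives was 3.85e-07 to 0.269. The lowest came from DESeq2 with the 18 cultures taken as if they were separate tumors, and DESeq2 on the 6 lines gave an adjusted p of 0.0372. The lines of Lamc3, a gamma chain of low level here, overlapped at 0.512 to 0.928 CPM against 0.579 to 1.90 CPM. The epithelial list, in which only the keratins Krt8 and Krt18 went above 1.26 CPM, summed to 58.1, 740 and 3.92 CPM against 611, 185 and 9.34 CPM and overlapped between the genotypes.

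Of the beta chains, Lamb1 was constant across the Nf1/Cdkn2a dKO lines at 680, 693 and 677 CPM and varied in the Nf1/p53 dKO lines at 670, 382 and 278 CPM. The groups did not overlap, the nearest lines being at 670 and 677 CPM, and the log2 fold change was 0.62 (SE 0.32, edgeR adjusted p = 0.299). Lamb2, the beta chain of synaptic laminins, leaned the other way at 89.6, 133 and 148 CPM against 82.1, 61.8 and 103 CPM, with an overlap and a log2 fold change of -0.59 (SE 0.26, adjusted p = 0.247). Per length, Lamb1 over Lamb2 was thus 4.59, 1.76 and 1.15 across Nf1/p53 dKO lines, against 5.08, 6.87 and 4.03 in the Nf1/Cdkn2a dKO lines, with Nf1/p53 dKO line 1 inside the range of the other genotype. Lamb3 stood at 0.657, 1.36 and 1.26 CPM against 0.529, 0.173 and 0.719 CPM (log2 fold change -1.20, SE 0.61, adjusted p = 0.297). Lamc1 RNA exceeded all laminin alpha chains together in every line, by a ratio per length of 4.43, 2.72 and 1.57 in Nf1/p53 dKO and 5.93, 25.2 and 4.24 in Nf1/Cdkn2a dKO. The highest ratio, in Nf1/Cdkn2a dKO line 2, went with the lowest sum of alpha chains, 2.16 CPM per kb against 8.95 to 17.0 CPM per kb in the other 5 lines.

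Around the members, genes of 5 adhesion lists gave 4 calls in the same fit, in which 1.80% of all genes were called. The adhesion complex list, the proteins that tie integrin tails to actin, had 0 of 27 tested genes called, 9 at an unadjusted p under 0.05 beside 9.81% of all genes higher and 12.5% lower, 7 higher in Nf1/Cdkn2a dKO without overlap beside 14.8% of all genes, and a median log2 fold change of 0.46, with 22 above 0 and 5 below. DESeq2 on the 6 lines called 13 genes over all 5 lists, beside 12.0% of all genes, and the number of list genes it tested is not given here. Tln1, the talin that activates integrins, stood at 516, 685 and 594 CPM across Nf1/p53 dKO lines and 826, 784 and 916 CPM across Nf1/Cdkn2a dKO lines (log2 fold change 0.49, SE 0.16, edgeR adjusted p = 0.145). Tns3, a tensin, found in fibrillar adhesions, stood at 217, 272 and 320 CPM against 455, 461 and 478 CPM (0.78, SE 0.17, adjusted p = 0.0714). Both were above every Nf1/p53 dKO line in every Nf1/Cdkn2a dKO line, and both were named after their values were seen. The other talin of the list, Tln2, went the other way, at 58.2, 94.4 and 105 CPM against 47.2, 36.2 and 61.2 CPM. Its lines overlapped (-0.83, SE 0.28, edgeR adjusted p = 0.159), it was among the 9 genes above, and it too was named after its values were seen. The highest value of the list was that of Tns4, at 3.18 (SE 1.24) from 0 to 0.799 CPM against 3.16 to 5.05 CPM, and the lowest that of the scaffold Nedd9, at -1.15 (SE 0.55). Ilk, integrin-linked kinase, was listed at 0.0258 to 0.577 CPM, and 89.7% of its exon bases are shared with genes on the opposite strand, Taf10 and Rrp8, so its level is uncertain.

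The list of laminin receptors other than integrins, which also holds dystrophin complex genes that are not themselves receptors, gave 0 calls among 12 tested genes. It had 1 at an unadjusted p under 0.05, and a median log2 fold change of -0.35. The highest was Sgcd at 0.55 (SE 0.39) and the lowest Sgca, the sarcoglycan of striated muscle, at -3.19 (SE 1.15, edgeR adjusted p = 0.173). Sgca stood at 0.155, 0.184 and 1.55 CPM across Nf1/p53 dKO lines and 0.128, 0.0288 and 0.0469 CPM across Nf1/Cdkn2a dKO lines, and the muscle progenitor markers were highest in the line where it was highest. Their part in its level was not tested.

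Basement membrane partners gave 1 call among 14 tested genes, with 8 above 0 and 6 below and a median of 0.32. Nid1, which links laminin to collagen IV through the laminin gamma chain, was higher in Nf1/Cdkn2a dKO, at 339, 544 and 272 CPM against 1409, 1039 and 1215 CPM (log2 fold change 1.66, SE 0.29, edgeR adjusted p = 0.0488). Col4a1, a collagen IV chain, had the highest fitted value at 2.06 (SE 1.00, adjusted p = 0.280), from 180, 733 and 28.2 CPM against 1103, 1583 and 1249 CPM. Neither gene overlapped between the genotypes. Col4a6 was the lowest at -1.72 (SE 1.26).

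The other integrin ligands gave 2 calls among 22 tested genes, in opposite directions, with 10 above 0, 12 below and a median of -0.12. Mfge8, an RGD ligand of αv integrins, was higher in Nf1/Cdkn2a dKO, at 289, 222 and 192 CPM against 513, 609 and 584 CPM (log2 fold change 1.28, SE 0.19, edgeR adjusted p = 0.0403). Edil3, a related RGD protein, was lower, at 30.9, 47.8 and 31.2 CPM against 8.44, 11.4 and 11.9 CPM (-1.79, SE 0.25, adjusted p = 0.0380). The highest value was that of thrombospondin Thbs1 at 2.02 (SE 0.67, adjusted p = 0.149), and the lowest that of Lrrc32, the surface anchor of latent TGFβ, at -5.01 (SE 1.86, adjusted p = 0.183), which was at 185 CPM in Nf1/p53 dKO line 2 and at most 9.27 CPM in the others.

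Tetraspanins, membrane proteins that sit beside laminin-binding integrins, had 6 of 7 tested genes above 0 and 1 below, and these 7 were also the genes of the list whose lines did not overlap, beside 14.8% of all genes higher and 16.6% lower. Cd53, a leukocyte tetraspanin that is on the leukocyte marker list as well, was called higher in Nf1/Cdkn2a dKO, at 1.78, 1.27 and 2.41 CPM against 11.1, 10.0 and 12.3 CPM (log2 fold change 2.61, SE 0.32, edgeR adjusted p = 0.0287). Cd151, the direct partner of α3β1 and α6β1, stood at 151, 171 and 192 CPM against 275, 240 and 265 CPM (0.60, SE 0.15, adjusted p = 0.0856), and was named after its values were seen. The lowest was Cd82 at -2.28 (SE 0.77, adjusted p = 0.153), from 65.7, 31.0 and 273 CPM against 27.6, 20.8 and 27.6 CPM. The number of calls over the 5 lists was 4 with all lines and 0 to 2 with any line left out, 2 without Nf1/p53 dKO line 1, 1 without Nf1/p53 dKO line 3 and 0 without each of the others. The share of all genes called with a line left out is not given here. All values above are RNA levels, and whether the chains met as protein was not measured.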

How the data were processed

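RNA-seq libraries came from 18 cultures of 6 MPNST cell lines, 3 lines per genotype. The authors deposited raw counts, whole numbers of reads per gene without normalization, for 35275 genes; per the submitters' processing notes CASAVA, STAR 2.5, DESeq2 1.14.1 and the builds GRCm38 and mm10 were used, with the read counter, its strand setting and the annotation not given in the sources used here. The study's statistics section gives another number of replicates than its legends, and the libraries were grouped by their titles. Nothing states that molecular identifiers were used, so a floor of 3 counts covers counting error only.

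The 3 cultures of each line share a tumor and their counts were added up. After filterByExpr (minimum count 10, minimum total 15) and TMM scaling, genotypes were compared by the quasi-likelihood test of edgeR, with p-values adjusted by the Benjamini-Hochberg method and calling an adjusted p under 0.05 (edgeR 4.0.16, limma 3.58.1, DESeq2 1.42.0, R 4.3.3; pandas 2.3.3, matplotlib 3.10.9). A gene at or under the floor in both genotypes was given no fold change. SEs were derived from the F statistic. Exon lengths and positions are from GENCODE M21. Steps were tested on simulated counts. Within every line the cultures were further apart than sampling noise (chi-square per degree of freedom 3.57 to 29.2 over 18 pairs), so none was a repeated library. Line numbers in the labels did not pair the genotypes (correlations of deviations -0.133 to -0.0848).

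Alternatives were the 18 cultures as samples with edgeR or DESeq2, limma-voom with a random term for the line (consensus correlation 0.811), DESeq2 on 6 lines, other scalings, other filters, replicate blocks and each line left out. For pairing they were a threshold of 0.5 or 2 CPM per kb, the longest transcript, raw totals and every single culture. The overlap of lines without Nf1/p53 dKO line 3 was added after seeing the data. Members and gene lists were chosen with earlier results of these data known. Results for 1 member and 1 marker gene are not reported here. Named were every other member with a count, with full statistics for called members and those with the 5 largest or 5 smallest fitted log2 fold changes, and of each pathway list every called gene and its highest and lowest.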

Additional observations from a re-analysis of the deposited data

Results flagged for a closer look

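Among the 9 cultures of a genotype, 5 values lay far from the rest by Dixon's criterion, out of 75 sets of cultures examined. Chance flags about 1 in 20 where the 9 values are independent and normally spread. Each set here held 3 cultures from each of 3 lines, so that rate does not apply. Of the 5 values, 4 are of genes at or near 0, and Lamc3 was at 0.340 to 2.28 CPM over the 18 cultures. Itgad was at 0.426 CPM (8 counts) in culture 2 of Nf1/Cdkn2a dKO line 1, with the next culture at 0.172 CPM. Itgal was at 0.129 CPM (3 counts) in culture 3 of the same line. Itgam was at 0.269 CPM (6 counts) in culture 3 of Nf1/p53 dKO line 2, with the next at 0.120 CPM. Itgb2l was at 0.266 CPM (8 counts) in culture 2 of Nf1/p53 dKO line 1 and at 0 in the others. Lamc3, a laminin gamma chain, was at 1.41 CPM (35 counts) in culture 3 of Nf1/p53 dKO line 1, with the next at 0.844 CPM.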

How the results depend on the processing

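The count of integrin and laminin genes called between the genotypes was 0 with edgeR on the 6 lines and stayed 0 with DESeq2's size factors, upper-quartile factors, raw totals, no filter or a filter of 10 counts in every line. It was 6 with DESeq2 on the 6 lines, 9 with limma-voom and the line as a random effect, 14 and 15 with the 18 cultures as separate samples by edgeR and DESeq2, 0 to 1 with a line left out (1 without Nf1/p53 dKO line 1), 0 with the line number as a replicate block and 12 with the culture number as a replicate block on the 18 cultures. For the 5 adhesion lists the 4 calls became 13, 34, 41 and 47 in the same order of tools, 0 to 2 with a line left out, 0 with the line number as a replicate block and 40 with the culture number as a replicate block. Over all genes the share called also rose, from 1.80% with edgeR on the 6 lines to 12.0, 16.6, 46.5 and 39.3% in that order of tools. For the replicate-block fits that share was not computed, and for the fits with a line left out it is not given here. The number of list genes tested in each alternative is not given either. These counts are therefore not read as results about the members or lists. The line and culture numbers did not pair the samples (correlations of deviations by culture number -0.00967 to 0.00331). The fits on 18 cultures without a term for the line count cultures of a tumor as tumors. The cause of the other changes was not tested. Laminin trimers complete in every line went from 0 to 3 without Nf1/p53 dKO line 2 and to 2 without Nf1/Cdkn2a dKO line 2, lines in which Lama5 and Lama4 were under 1 CPM per kb, and stayed 0 without each of the others. Of 215 single-gene log2 fold changes over 13 members, 168 kept their direction and side of the threshold, 47 kept their direction and passed it, and 0 reversed. The 13 were picked by their values in the main fit, which made a reversal unlikely from the start. Some members outside the 13 did change sign. With a line left out, the log2 fold change of Itga5 ran from -0.68 to 0.44 and that of Lama5 from -0.55 to 2.58. The leukocyte chains Itgam, Itgad and Itgal and the gene Itgb2l had too few counts to test, and the part of depth in this was not tested.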

Other observations

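The names that share the Itgb stem but encode no subunit were left out above. Of these Itgbl1, an integrin-like protein built of EGF repeats, stood at 60.5, 11.1 and 3.35 CPM across Nf1/p53 dKO lines and 269, 185 and 256 CPM across Nf1/Cdkn2a dKO lines, with no overlap. Its log2 fold change was 3.24 (SE 1.00, edgeR adjusted p = 0.128), and 2.73 to 5.03 with adjusted p of 0.0462 to 0.260 when a line was left out. Itgb3bp, a centromere protein also named for binding the β3 tail, stood at 9.45, 10.7 and 17.2 CPM against 8.39, 7.57 and 8.20 CPM, lower in every Nf1/Cdkn2a dKO line (-0.63, SE 0.29, adjusted p = 0.258). Itgb1bp1, an inhibitor of β1 activation, stood at 16.9 to 39.0 CPM over the 6 lines with a log2 fold change of 0.23 (SE 0.30), and Itgb1bp2, the muscle protein melusin, stayed under 1 CPM in every line. The endothelial list of 10 markers summed to 4.16 to 13.6 CPM across Nf1/p53 dKO lines and to 8.99 to 30.7 CPM across Nf1/Cdkn2a dKO lines, of which Flt1 made up 1.65 to 7.36 CPM and 3.25 to 26.8 CPM. Egfl7 stood at 0.581 to 4.87 CPM against 2.02 to 5.02 CPM, Tek was lower at 0.412 to 1.08 CPM against 0.0642 to 0.0782 CPM (log2 fold change -3.23, SE 0.55, edgeR adjusted p = 0.0465), and 6 of the 10 were under 1 CPM in every line. Differentiated muscle markers summed to 10.1 to 37.5 CPM against 0.721 to 9.83 CPM.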
